A study of Arabidopsis thaliana with 9 samples.

Results

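The auxin response factors (ARF) and the Aux/IAA repressors are the families that carry the nuclear auxin response of plants. Members were the protein-coding genes of the annotation whose symbol or synonym was ARF1 to ARF23, leaving out the ADP-ribosylation factors of the same abbreviation, or IAA1 to IAA34. This gave 23 ARF genes and 29 Aux/IAA genes, 52 of 27432 nuclear protein-coding genes. The symbols IAA21 to IAA25 named no gene of their own and were found, if at all, as synonyms of ARF genes, which were counted once, as ARF genes.

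ARF proteins bind auxin response elements in DNA and activate or repress the genes there. At low auxin, Aux/IAA proteins bind the ARF activators and recruit corepressors of the TPL/TPR type. Auxin joins an Aux/IAA protein to a TIR1/AFB receptor, which leads to its ubiquitination and breakdown and frees the ARF. Many Aux/IAA genes are themselves induced by auxin, which closes a negative feedback loop. FIE belongs to the core of Polycomb repressive complex 2 (PRC2), whose methylation of histone H3 (H3K27me3) keeps genes silent.

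ChIP-seq for FIE had been run on untreated Arabidopsis thaliana (strain Ws) at 30 hr of age, grown in long days. The 9 libraries formed 3 groups of 3 replicates: wild type with no transgene and anti-FIE antibody, plants with the transgenes pRNAi-BPC and pRNAi-ZnF and anti-FIE antibody (the double knockdown), and input chromatin of the wild type. BPC proteins bind GAGA motifs; the labels do not spell out ZnF, nor do they name the genes targeted, the promoters of the transgenes or the number of lines. The comparison asked which members carried FIE in the wild type and which of them carried it in the double knockdown. Each anti-FIE group was given as 1 peak list, with 6540 wild-type and 4882 knockdown peaks, so no value below has a replicate error, and no test between the groups was possible. The name of the list taken as the double knockdown is not explained in the labels, and the list was assigned as the remaining anti-FIE group.

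Fold enrichment at the summit is the authors' value for a peak and is used within its own list. All deposited peaks had a −log10 q above 10, so a gene without a peak may still hold FIE below that filter. The knockdown list was taken to be shallower, from its recovered background alone. Its lowest background, recovered from the peak values, was 7.94 reads, against 16.9 reads in the wild-type list. A wild-type peak is called strong below if its pileup and background, multiplied by the ratio of 0.471, still reached the lowest −log10 p of the knockdown list, 12.4; at equal occupancy a strong peak would be expected in the shallower list. This expectation takes the ratio of the lowest backgrounds to stand for depth, though how replicates and input were combined is not given. It also takes the enrichment by the antibody to be equally efficient in both groups. Neither was tested. The knockdown plants had no input library among these samples.

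Aux/IAA genes carried FIE peaks in the wild type and none in the double knockdown. Such an absence was common, since 92.4% of the 2725 wild-type-bound genes lacked a knockdown peak. ARF genes with a peak were equally many in each list, but they were mostly different genes. No wild-type peak on an ARF gene was strong, so a loss of FIE there could not have been seen. Of the 4 ARF genes with a knockdown peak, 3 belong to a group of similar genes where peak placement is uncertain. In the wild type a peak overlapped the gene body by at least 1 bp at 10 of 29 Aux/IAA genes (34.5%, 95% Wilson interval 19.9 to 52.7) and at 4 of 23 ARF genes (17.4%, 6.98 to 37.1), beside 9.93% of all protein-coding genes. In the knockdown 0 of 29 Aux/IAA genes had a peak (interval 0 to 11.7%) and 4 of 23 ARF genes did (17.4%, 6.98 to 37.1), beside 4.40% of all protein-coding genes. The Aux/IAA interval contains this 4.40%, so the 0 of 29 cannot be told apart from the share of all genes. Likewise the ARF interval in the wild type contains 9.93%, so 4 of 23 there cannot be told apart from it. The Aux/IAA interval in the wild type and the ARF interval in the knockdown lay above the shares of all genes. The intervals cover the number of genes alone, and genes of a family share sequence and, in part, position. The families' intervals overlapped in both lists, and the difference between the families was not tested. A peak in both lists was found at 1 member, ARF5, and 35 of the 52 members had a peak in neither. Of all 27432 protein-coding genes, 206 had a peak in both lists and 23707 in neither.

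**Figure D1:**
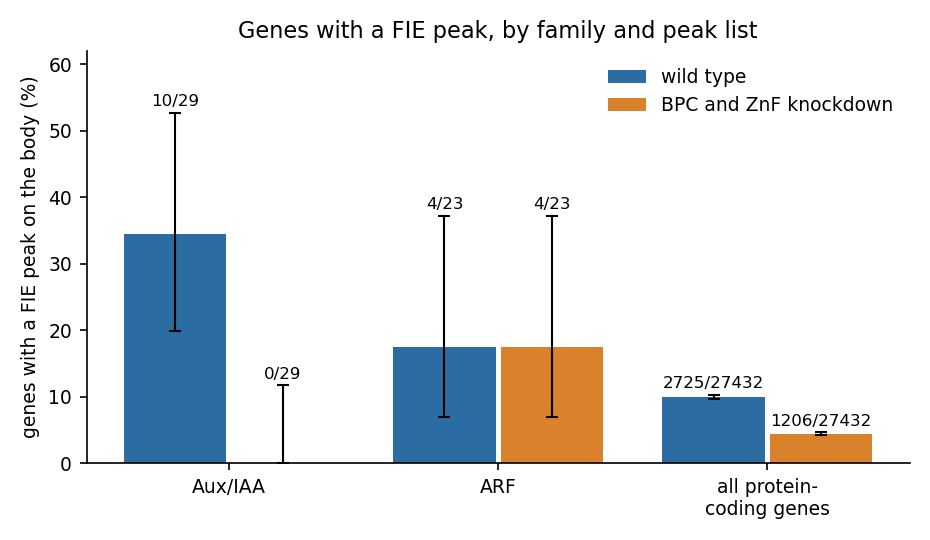
Percent of Aux/IAA, ARF and all protein-coding genes with a FIE peak on the gene body, in the wild-type list (blue) and the BPC and ZnF knockdown list (orange). Bars carry the gene counts and 95% Wilson intervals. Aux/IAA genes stand at 10 of 29 and 0 of 29, ARF genes at 4 of 23 in each list, with only ARF5 in both.

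Wild-type peaks on Aux/IAA genes were mostly longer than those on ARF genes, with overlapping ranges and no test. The 11 peaks on Aux/IAA genes had a median length of 718 bp (102 to 2761 bp), and 5 of them were at least 1000 bp long, as were 8.75% of all wild-type peaks. The 5 peaks on ARF genes had a median length of 190 bp (80 to 460 bp), with 0 of that length. Per bound gene, the strongest fold had a median of 4.62 for Aux/IAA genes and 3.36 for ARF genes, beside 3.36 for the 2725 bound protein-coding genes. Peak sequence lay on a median of 47.2% of the body of a bound Aux/IAA gene, 7.14% of a bound ARF gene and 16.3% of a bound gene of any kind. None of the 21 peaks on members in the lists reached into a second protein-coding gene.

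Gene length was set beside these counts because the families differ in it, with a median of 1740 bp for Aux/IAA and 3567 bp for ARF genes. Across 7 length classes of all protein-coding genes the share with a wild-type peak lay between 7.86% (up to 1000 bp) and 12.5%: it was 12.5% at over 1000 to 1500 bp, 10.4% at over 1500 to 2000 bp, 9.49% at over 2000 to 3000 bp, 9.81% at over 3000 to 4000 bp and 10.1% at over 4000 to 6000 bp. In the first 4 of these classes 4 of 9, 2 of 8, 3 of 9 and 1 of 2 Aux/IAA genes were bound; the single shorter Aux/IAA gene, IAA5, was not. Of the ARF genes, 1 of 12 was bound at over 3000 to 4000 bp and 3 of 9 at over 4000 to 6000 bp, and the 2 shorter ones were not. The share with a knockdown peak was higher in longer classes, from 3.09% at over 1000 to 1500 bp to 5.42% at over 3000 to 4000 bp and 7.73% at over 4000 to 6000 bp.

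The longest peaks lay on IAA7, IAA16 and IAA17, closely related Aux/IAA genes in which mutations that stabilise the protein make plants resistant to auxin. IAA16 (AT3G04730, TAIR10 chromosome 3, 1288155 to 1290891) carried a peak of 1584 bp with a fold of 8.43, which ranked 197th in the wild-type list. IAA7, also known as AXR2 (AT3G23050, chromosome 3, 8194606 to 8197161), carried a peak of 2761 bp with a fold of 7.41, which covered 97.1% of the gene body. IAA17, also known as AXR3 (AT1G04250, chromosome 1, 1136078 to 1138663), carried a peak of 1625 bp with a fold of 4.63 over 62.8% of the body. The remaining gene of this group, IAA14 or SLR, which controls the start of lateral roots, had no peak within 7452 bp in the wild type. At the knockdown depth the summit pileups of IAA16, IAA7 and IAA17 would be 113.1, 68.8 and 45.7 reads. With their scaled backgrounds these peaks were all strong. The smallest pileup in the knockdown list was 35 reads, which is not a threshold, since a strong peak is defined by its −log10 p. None of the genes of this group had a knockdown peak, nor did 90.0% of all protein-coding genes with a strong wild-type peak. The nearest knockdown peak lay 78449 bp from IAA16, 2329 bp from IAA7 and 22251 bp from IAA17.

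Among IAA1 to IAA4, another group of close relatives, all but IAA3 were bound. IAA2 (AT3G23030, chromosome 3, 8180646 to 8182095) had a fold of 5.998 and a peak of 1460 bp that covered 94.7% of its body. IAA1, also known as AXR5 (AT4G14560, chromosome 4, 8360996 to 8362033), had a fold of 5.09 and a peak of 718 bp with its summit 9 bp outside the lower-coordinate end of the gene. IAA4 (AT5G43700, chromosome 5, 17550179 to 17551715) had a peak near each end, with folds of 3.70 and 2.88. The stronger had 53 bp on the gene and its summit 165 bp outside the lower-coordinate end. IAA3, or SHY2, which restrains growth of the root meristem, had no peak within 4673 bp. The leading peaks of IAA1, IAA2 and IAA4 were strong, with scaled pileups of 53.3, 82.0 and 51.4 reads, and none of the 3 genes had a knockdown peak.

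These related genes include neighbours on the chromosome, and the members of a pair did not always match. IAA2 and IAA7 lie 12510 bp apart with no protein-coding gene between them, and both were bound, by separate peaks. A further 2 wild-type peaks, with folds of 2.96 and 3.08, lay in the space between. IAA3 and IAA17 lie 6388 bp apart, and IAA17 was bound while IAA3 was not. IAA14 and IAA1 lie 10732 bp apart, and here IAA1 was bound while IAA14 was not; a peak with a fold of 3.76 lay 2547 bp from IAA1.

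The other bound Aux/IAA genes were IAA20, IAA19, IAA6 and IAA13. IAA20 (AT2G46990, chromosome 2, 19307714 to 19309071) encodes a long-lived protein that lacks the canonical degron read by the auxin receptors, and it had a fold of 4.61 over 69.5% of its body. It was the only bound gene among the 6 of that kind; IAA30 to IAA34 had no peak in either list. IAA19, or MSG2, which acts in the bending of the hypocotyl, had a fold of 3.76, and IAA6, or SHY1, a fold of 3.11. IAA13, a relative of the embryo regulator IAA12, had a fold of 3.01, with its summit at 97.4% of the gene length from the lower-coordinate end. The peak of IAA20 was strong (scaled pileup 48.6 reads). Those of IAA19, IAA6 and IAA13 were not, with 34.4, 25.9 and 32.1 reads, so a loss at these genes was not detectable at the knockdown depth.

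**Figure D2:**
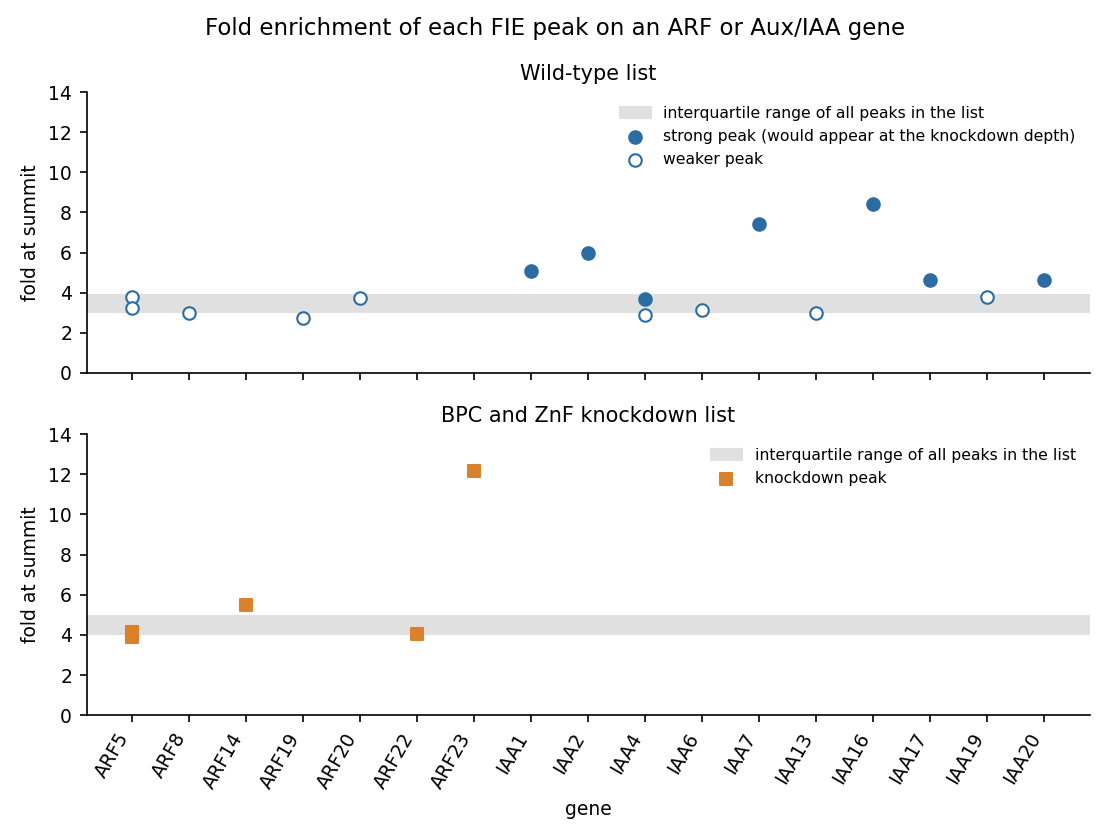
Fold enrichment at the summit (vertical axis, authors' value) of each FIE peak on an ARF or Aux/IAA gene (horizontal axis), wild-type list above and knockdown list below, with the grey band covering the interquartile range of all peaks of that list. Filled blue points are strong wild-type peaks, expected to appear at the depth of the knockdown list; 7 lie on Aux/IAA genes and 0 on ARF genes, and ARF23 stands highest in the knockdown list at 12.2.

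The remaining 19 Aux/IAA genes had no wild-type peak. They included all 3 of IAA8, IAA9 and IAA27, IAA10 to IAA12, IAA5 and IAA15, and IAA18, IAA26, IAA28 and IAA29. IAA27 lay just outside the rule, with a peak of 93 bp (fold 2.87) starting 25 bp beyond its higher-coordinate end; the smallest total length of peak on the body of a bound member was 121 bp in the wild type, at ARF19, and 81 bp in the knockdown, at ARF14. IAA12, or BDL, the partner of ARF5 in the embryo, had a peak (fold 2.74) at 1198 bp, on the neighbouring gene AT1G04540. Over the 19 genes the nearest wild-type peak was a median of 8826 bp away (25 to 40320 bp), beside 10347 bp for all protein-coding genes without a peak. In the knockdown list the nearest peak to the 29 Aux/IAA genes was a median of 22251 bp away (1993 to 139005 bp), beside 22473 bp for all genes without one.

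Counting strong wild-type peaks alone, 7 of 29 Aux/IAA genes (24.1%) and 0 of 23 ARF genes were bound, beside 2.70% of all protein-coding genes. At IAA1 and IAA4 the summit of the strong peak lay outside the gene body. None of the 7 had a knockdown peak, and of all 742 protein-coding genes bound in this sense 90.0% had none. Of all genes with any wild-type peak 92.4% had none, so the absence of a knockdown peak was common to bound genes in general.

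Of the ARF genes bound in the wild type, ARF5, ARF8 and ARF19 belong to class A, the activators of auxin-induced genes. ARF5, or MP, which sets up the embryonic root and the vasculature (AT1G19850, chromosome 1, 6886669 to 6891404), had wild-type peaks of 448 and 80 bp with folds of 3.78 and 3.21. It also had knockdown peaks of 181 and 248 bp with folds of 3.92 and 4.12, the latter lying wholly within the longer wild-type peak. The summits of these overlapping peaks were 340 bp apart. The scaled wild-type pileups were 31.6 and 26.9 reads, so neither wild-type peak was strong, and the knockdown summits had 40 and 36 reads. ARF5 was the 1 bound member of either family with a peak at an overlapping place in the other list.

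ARF8, which promotes flower maturation and is a target of miR167, had a peak of 460 bp with a fold of 2.97 that started 41 bp before the lower-coordinate end of the gene (AT5G37020, chromosome 5, 14629453 to 14634454). ARF19, which acts with ARF7 in lateral root formation, had a peak of 121 bp with a fold of 2.75 (AT1G19220, chromosome 1, 6627683 to 6633133), at the 5.55th percentile of folds in the list. Neither had a knockdown peak, and neither wild-type peak was strong, with scaled pileups of 38.2 and 31.1 reads over their local backgrounds. The other class A genes had wild-type peaks beside the gene and none on it: that of ARF6 (fold 3.58) lay 689 bp away and that of ARF7 (fold 3.64) lay 1129 bp away, on the neighbouring gene CPN20.

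**Figure D3:**
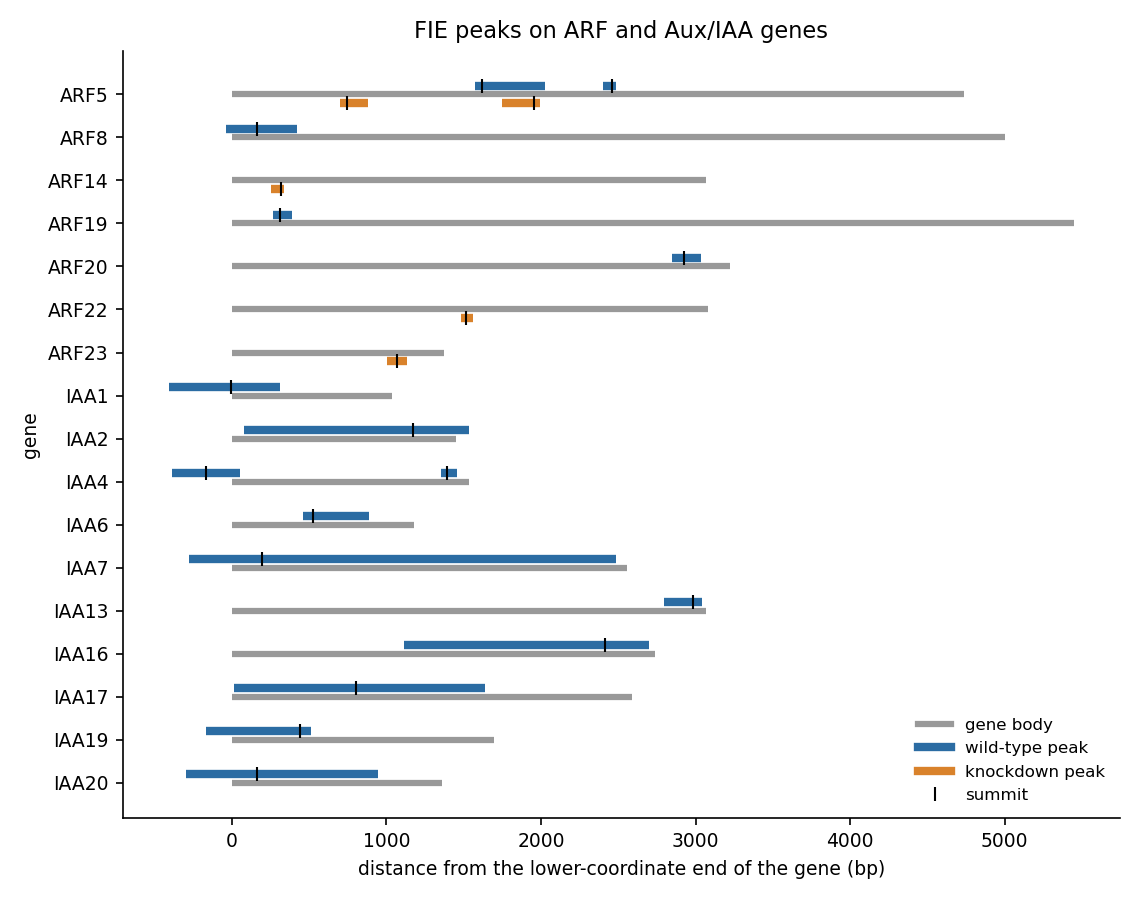
Position of each FIE peak on the bound members, as distance in bp from the lower-coordinate end of the gene (grey bar, gene body); blue bars are wild-type peaks, orange bars knockdown peaks and black ticks summits. Peaks on IAA2, IAA7, IAA16, IAA17 and IAA20 span over 1000 bp, whereas those on ARF genes are at most 460 bp long.

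The remaining ARF genes with a peak belonged to a group of related class B genes on chromosome 1. Of its 8 members, 7 (ARF12 to ARF15 and ARF20 to ARF22) lie within 668.2 kb, at 12443547 to 13111700, at the edge of the gene-poor region around the centromere, which began at 13100001. ARF20 (AT1G35240) had a wild-type peak of 190 bp with a fold of 3.75, which was not strong (scaled pileup 31.1 reads), and no knockdown peak. In the knockdown list alone, ARF14 (AT1G35540) had a peak of 81 bp with a fold of 5.48, and ARF22 (AT1G34390) a peak of 82 bp with a fold of 4.02 and the smallest pileup of that list, 35 reads. ARF23 (AT1G43950, chromosome 1, 16672582 to 16673952), a shortened gene of 1371 bp inside the gene-poor region, had a knockdown peak of 127 bp with a fold of 12.2, which ranked 144th in that list. No wild-type peak lay within 35871 bp of ARF23, 4164 bp of ARF14 or 63122 bp of ARF22. A knockdown peak alone was common in general: of all 1206 protein-coding genes with a knockdown peak, 1000 had no wild-type peak.

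The group thus had a peak at 1 of 8 genes in the wild type and 3 of 8 in the knockdown, and the other 15 ARF genes at 3 and at 1. For comparison, 8.19% of the 842 protein-coding genes in gene-poor regions and 4.28% of those on the arms had a knockdown peak; for wild-type peaks the shares were 8.79% and 9.97%. ARF14 and ARF23 lay in the gene-poor region and the other 6 group members outside it. The genes of this group are similar in sequence, and no source used here says how reads that match several copies were placed, so the assignment of a peak to one copy is uncertain. Without an input from the knockdown plants, a FIE signal there cannot be told apart from signal that needs no antibody.

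No peak in either list overlapped the other class B genes or class C. Class B here covers ARF1 and ARF2, which act in ageing and organ growth, ARF3 (ETT) and ARF4, which set organ polarity and are targets of TAS3 small RNAs, and ARF9, ARF11 and ARF18. ARF2 and ARF11 had a wild-type peak at 411 and 301 bp from the gene, with folds of 3.06 and 2.97. Class C covers ARF10, ARF16 and ARF17, the targets of miR160, whose nearest wild-type peaks lay 10406, 6617 and 28222 bp away. With the gene body extended by 1000 bp on both sides, 7 ARF genes were bound in the wild type, ARF2, ARF6 and ARF11 being added, and 11 Aux/IAA genes, with IAA27 added.

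**Figure D4:**
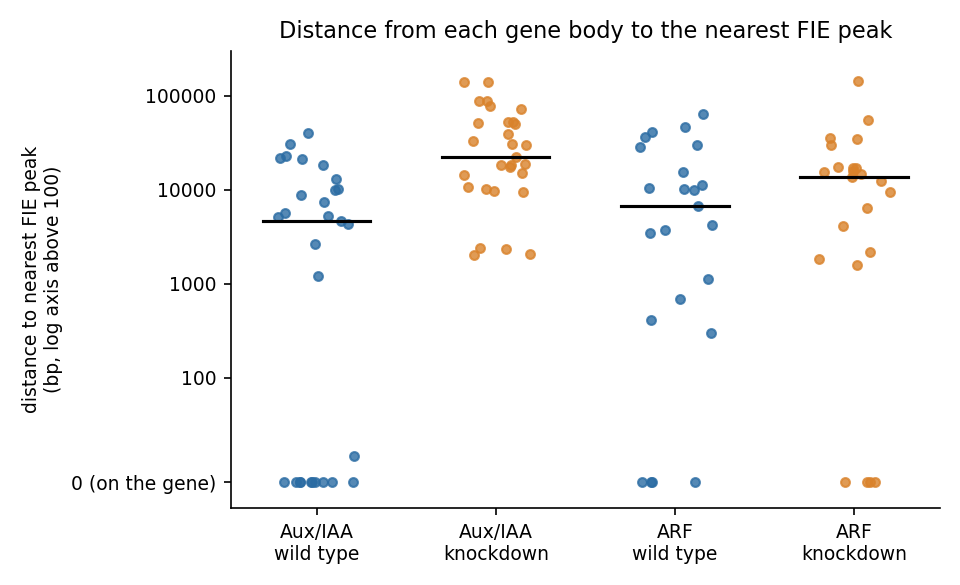
Distance in bp from the body of each Aux/IAA or ARF gene to the nearest FIE peak in the wild-type (blue) or knockdown (orange) list; the axis is logarithmic above 100 bp, 0 means a peak on the gene, and black lines are medians over all members. Among Aux/IAA genes the median was 4673 bp in the wild type and 22251 bp in the knockdown, and among ARF genes 6617 and 13561 bp. Over all protein-coding genes, which are not drawn, it was 8772 and 21031 bp.

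The other genes of the auxin pathway, taken from lists of 130 genes, were bound at 26 in the wild type and at 2 in the knockdown, beside 9.93% and 4.40% of all protein-coding genes. Among the enzymes that conjugate auxin, which are early auxin response genes as many Aux/IAA genes are, 5 of 7 GH3 genes were bound, led by GH3.1 with a fold of 3.98, DFL1 with 3.404 and GH3.3 with 3.37. SAUR genes are in general small early response genes linked to cell expansion. Among 78 genes matched by a SAUR name, 8 were bound (10.3%, close to the share of all genes). They were led by SAUR4 with 5.26, SAUR58 with 4.82 and SAUR51 with 4.63. The unbound gene matched as SAUR21 is 2865 bp long and lies apart from SAUR20 and SAUR22, so its place in the list is uncertain. Of the LOB-domain genes that act downstream of ARF7 and ARF19, 2 of 4 were bound, LBD18 with 3.86 and LBD16 with 2.96.

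Among the genes of auxin perception and repression, the TIR1/AFB receptor genes had 0 of 6 bound in the wild type, and the SCF ubiquitin ligase genes 0 of 4. Of the TPL/TPR corepressor genes 1 of 5 was bound, TPR3 with a fold of 2.80 and 76 bp on the gene. The Wilson intervals of these lists (0 to 39.0%, 0 to 49.0% and 3.62 to 62.4%) contain the 9.93% of all protein-coding genes, so they cannot be told apart from it. The intervals of the GH3, LOB-domain, PIN, AUX1/LAX and TAA and YUCCA lists lay above 9.93%. These lists hold few genes, and the difference was not tested. For auxin transport and synthesis, 4 of 8 PIN efflux carrier genes (PIN2 with 3.77, PIN7 with 3.62 and PIN4 with 3.27), 2 of 4 AUX1/LAX influx carrier genes (AUX1 with 3.402 and LAX2 with 3.21) and 4 of 14 TAA and YUCCA genes (TAA1 with 3.63, YUC8 with 3.44 and YUC1 with 3.402) were bound. Knockdown peaks lay on TIR1 (72 bp, fold 3.93) and GH3.4 (81 bp, fold 4.36), both without a wild-type peak. Of the 26 bound genes 4 had a strong peak, and all 4 were SAUR genes, beside 7 Aux/IAA genes.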

How the data were processed

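Per the submitters' processing notes, MACS2 (version 2.1.0.20151222), Bowtie2 and bedtools were used with the TAIR10 build; the order of these steps, and how replicates and input were combined, are not given in the sources used here. The authors deposited 1 narrowPeak list per anti-FIE group, and each row gives a score, the fold enrichment ratio at the summit, its −log10 p-value and −log10 q-value, and the summit position. From fold and −log10 p, the read pileup at the summit (a whole number) and the local background were recovered for each peak under a Poisson model with a pseudocount of 1 in the fold (largest misfit 7.27e-04 in −log10 p); the recovery was tested on simulated data. Depth per library is unknown. Gene positions came from the RefSeq table of TAIR10.1, whose nuclear chromosomes were taken to equal those of TAIR10; it gives no strand, so gene ends are called by coordinate. Gene-poor regions were found by counting protein-coding genes in 100 kb bins (running mean of 5 bins) and keeping, on each chromosome, the longest stretch below 0.5 of the median. Intervals are 95% Wilson intervals (scipy 1.17.1, Python 3.11.15). Members, lists and groups of relatives were chosen with earlier results of these data known. Every member with a peak was named, and from each other list the 3 genes with the highest wild-type fold and all with a knockdown peak. No test was run over genes. Alternatives changed the overlap rule, the gene window, the peak threshold and the depth of the wild-type list.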

Additional observations from a re-analysis of the deposited data

How the results depend on the processing

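Over 46 counts under the alternatives, 30 stayed within 1.5 times the reported count and 16 moved further; this could not be judged against a replicate spread. The Aux/IAA counts were among those that stayed, at 7 to 11 genes (wild type) and 0 genes (knockdown) under every alternative run. The knockdown count of 0 could have risen only with the wider window. The other alternatives run on that list only remove peaks or overlaps. Strong wild-type peaks are those expected at the depth of the knockdown list. With these alone, ARF genes bound in the wild type fell to 0, as did those without a knockdown peak (0). Other auxin pathway genes fell to 4 and all protein-coding genes to 742. With the gene body plus 1000 bp on both sides, bound ARF genes came to 7, of which 6 had no knockdown peak, and all protein-coding genes to 4296 (wild type) and 1950 (knockdown). With at least 100 bp of overlap, 2 ARF genes (ARF5 and ARF23), 0 other auxin pathway genes and 664 protein-coding genes had a knockdown peak. With the peaks at or above the median −log10 q of each list, knockdown peaks marked 2 ARF genes (ARF14 and ARF23), 0 other pathway genes and 374 protein-coding genes, and wild-type peaks 15 other pathway genes and 1434 protein-coding genes. Each of these changes follows from fewer peaks, a longer required overlap or a wider window. The window around the gene start was not run, since the gene table used gives no strand. No paired analysis was possible because each group is 1 peak list without replicate columns, and for the same reason no replicate could be left out.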
